A study of Mus musculus with 6 samples.

Results

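The genes described here are 10 genes of protein folding in the endoplasmic reticulum (ER) and of the unfolded protein response (UPR), the programme that raises ER folding capacity when unfolded proteins build up. They are Hspa5, Hsp90b1, Dnajb9, Dnajb11, Sdf2l1, Pdia4, Pdia6, Creld2, Manf and Xbp1, and they were taken by symbol from a table of 46095 gene symbols. All 10 were found, and all 10 passed the filter on low values that left 10633 genes for testing.

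RNA-seq was done on 3 libraries from ARRB1 knockout mice (HFD-ARRB1-KO) and 3 from wild-type mice (HFD-WT). All were C57BL/6 mice that had been fed a high-fat diet (HFD) for 26 weeks, and the material was liver labelled as hepatocytes. ARRB1 is beta-arrestin 1, an adaptor protein of G protein-coupled receptors, and the series concerns its role in fatty liver inflammation and in the processing of the secreted protein GDF15. Groups follow the titles of the samples. For replicates 2 and 3 of the knockout the genotype field reads ARRB2-/- and ARRB3-/-, unlike their titles and the series text, which give ARRB1. The sex of the mice, the construction of the knockout allele, the tissues in which it is deleted and the number of mice behind a library are not stated in the labels. No library from mice on another diet was among the 6, so the ER genes could be compared between genotypes on the high-fat diet only.

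In mammals 3 membrane proteins of the ER, IRE1 (gene Ern1), PERK (Eif2ak3) and ATF6, sense unfolded proteins. IRE1 splices the Xbp1 transcript into the form that encodes the active transcription factor, ATF6 is cut to release another, and PERK slows translation and favours that of ATF4. ATF6 and spliced XBP1 raise chaperones such as Hspa5 (BiP), and hepatocytes, which secrete most plasma proteins, hold much ER and high levels of these genes at rest. The gene values used here do not separate spliced from unspliced Xbp1.

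As a check of the labels, Arrb1 was at 0.918, 1.05 and 1.16 FPKM in knockout replicates 1 to 3 and at 3.86, 22.7 and 16.9 FPKM in replicates 1 to 3 of wild type, a log2 fold change of -2.64 ± 0.515 (SE; by limma, adjusted p = 0.0275). FPKM is a fragment count divided by gene length and by library size. All 3 knockout libraries lay below all 3 wild-type libraries, and wild-type replicate 1 was the lowest of its group. The Arrb1 call was kept without that library (adjusted p = 0.0011), but not without knockout replicate 1 (0.0596), 2 (0.1001) or 3 (0.0669) or wild-type replicate 2 (0.0916) or 3 (0.0701), nor with no filter (0.117) or with robust moderation (0.0769). Its log2 fold change lay between -3.34 and -2.19 with any 1 library left out. Estimated depth was 13910000 fragments in knockout replicate 1 and 27910000 to 35060000 in the other 5 libraries. Summed markers of macrophages (292 to 424 FPKM in knockout, 257 to 275 FPKM in wild type), of stellate cells and fibroblasts (135 to 210.0 and 108 to 127 FPKM) and of endothelium (128 to 147 and 108 to 122 FPKM) were each higher in all knockout libraries than in all wild-type libraries. Of these lists, 1 of 11, 3 of 9 and 3 of 8 genes were called higher, and 1 macrophage gene lower. Over all tested genes 5.3% were called higher and 1.6% lower, and 23.4% were higher in all knockout than in all wild-type libraries. The 9 hepatocyte markers summed to 42590 to 50900 FPKM in knockout and 43960 to 53650 FPKM in wild type, and 1 of them, Cps1, was called lower. Of other cells with much ER, the plasma and B cell list summed to 0.940 to 5.16 FPKM in knockout and 1.59 to 4.19 FPKM in wild type, with Ighm, Igkc and Tnfrsf17 listed at 0, and 8 of 10 pancreatic acinar genes were listed at 0 in every library. The acinar list summed to 9.21 to 11.25 FPKM in knockout and 18.1 to 24.5 FPKM in wild type, with no overlap, and Cela1, the 1 acinar gene tested, was called lower. Cholangiocyte markers (41.8 to 105 FPKM in knockout, 36.0 to 68.2 FPKM in wild type) and T and NK cell markers (1.66 to 4.02 and 2.05 to 2.45 FPKM) overlapped between the groups. The part of other cells in the levels of the ER genes was not tested, and in these bulk libraries a change in cell numbers and a change in RNA per cell cannot be told apart.

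Many UPR genes carry the ER stress response element (ERSE), a CCAAT box bound by NF-Y and, after 9 bases, a CCACG box bound by ATF6 or XBP1. The RefSeq promoter table (GRCm38.p6, 250 bases before to 50 after each start site) held 9 of the 10 genes, all but Manf. On either strand, 4 of the 9 promoters held the ERSE (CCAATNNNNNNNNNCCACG), against 39 of 32851 promoters in the table (0.119%). A further 1 held the type II element (ATTGGNCCACG), against 0.0365% of all promoters, and none held the ATF6/XBP1 element TGACGTGG, found in 0.676%. The sites with 8 bases on each side are shown because such elements are known to act in the promoters of UPR genes. Capitals mark the fixed bases of the element, and each line is the gene's own strand, 5′ to 3′.
Hspa5: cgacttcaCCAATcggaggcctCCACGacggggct
Hsp90b1, distal: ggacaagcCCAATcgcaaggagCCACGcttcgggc
Hsp90b1, proximal: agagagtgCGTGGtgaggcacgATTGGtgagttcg
Pdia6: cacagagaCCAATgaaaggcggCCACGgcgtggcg
Creld2: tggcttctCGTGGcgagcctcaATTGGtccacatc
Dnajb11, type II: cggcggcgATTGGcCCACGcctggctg
The Hspa5 site lay 65 to 47 bases before the start site, the Hsp90b1 sites 212 to 194 and 107 to 89 bases before it, the Pdia6 site 98 to 80 bases and the Creld2 site 126 to 108 bases before it. The Dnajb11 site lay 8 to 18 bases after its start site. The Creld2 site and the proximal Hsp90b1 site run in the reverse orientation. Start sites are those of RefSeq, and some differ from the GENCODE gene positions given below. By those positions the Hspa5 site lies inside the gene. No match was found in the windows of Dnajb9, Sdf2l1, Pdia4 and Xbp1, which says only that these letters are not there. The Dnajb9 window lies inside the GENCODE span of its gene, and the Pdia4 window lies wholly before its gene.

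Of the 10 genes, 1 was called higher in the knockout libraries at an adjusted p under 0.05 and none was called lower, where 5.3% of all tested genes were called higher and 1.6% lower. The gene was Creld2, at about 2.2 times its wild-type level. At an unadjusted p under 0.05, 4 were higher (Creld2, Pdia4, Hspa5 and Dnajb9), where 19.1% of all genes were, and none was lower, where 6.19% were. The same 4 were higher in all knockout than in all wild-type libraries, against 23.4% of all tested genes, and none was lower in all of them, against 7.81%. The log2 fold change was above 0 for 9 of the 10, as for 63.6% of all tested genes, with a median of 0.26 over the 10 genes and 0.0746 over all genes. With scaling by median of ratios 8 of the 10 were above 0, and the medians were 0.161 over the 10 genes and -0.0068 over all genes. The 10 genes were chosen with earlier results of these data known, so these shares and medians are not those of an unbiased set. The 10 genes lie on 8 chromosomes.

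**Figure D1:**
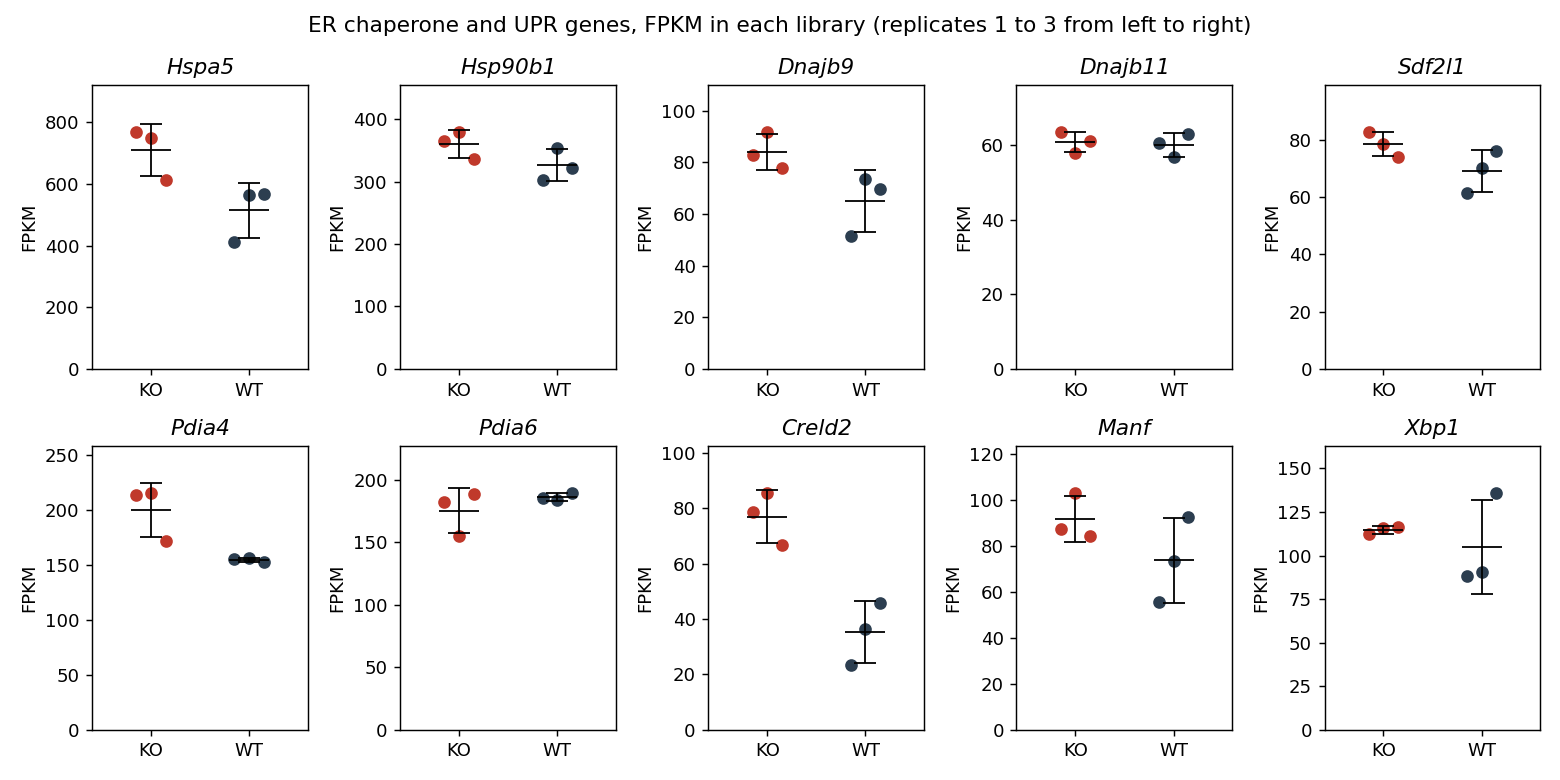
FPKM of each of the 10 genes in the 3 HFD-ARRB1-KO libraries (red, left) and the 3 HFD-WT libraries (dark, right), replicates 1 to 3 from left to right, with the mean and SD of each group. Creld2 shows the widest gap, 66.7 to 85.5 FPKM in knockout and 23.5 to 45.7 FPKM in wild type, while Dnajb11 and Pdia6 overlap between the groups.

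Creld2 encodes a secreted and ER-resident protein with disulphide isomerase activity that is induced by ER stress. Its level was 78.6, 85.5 and 66.7 FPKM in knockout replicates 1 to 3 and 23.5, 36.4 and 45.7 FPKM in replicates 1 to 3 of wild type. Every knockout library lay above every wild-type library, and wild-type replicate 1 was the lowest. The means were 76.9 ± 9.52 FPKM in knockout and 35.2 ± 11.2 FPKM in wild type (SD, n = 3 each), a log2 fold change of 1.15 ± 0.222 (SE; 95% interval 0.63 to 1.67; limma, adjusted p = 0.0268). An exact permutation test, two-sided, gave p = 0.1, and 3 against 3 libraries cannot give a smaller one. The values rested on 1067 to 4088 reads per library, so counting error at the lowest was 3.06%, against a spread between libraries of 12.4% in knockout and 31.7% in wild type. The call was lost without knockout replicate 1 (adjusted p = 0.0584), 2 (0.106) or 3 (0.0503) or wild-type replicate 2 (0.0905), and also when all genes were tested with no filter (0.108). It was kept without wild-type replicate 1 (0.0336) or 3 (0.0221), and the log2 fold change stayed between 0.89 and 1.36 with any 1 library left out.

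Creld2 (chromosome 15, 88819646 to 88826683, plus strand, GRCm38) is shown with its whole promoter window, chr15:88819396-88819695, because it is the called gene of the 10 and because another gene starts nearby on the opposite strand. Capitals again mark the element.
Creld2: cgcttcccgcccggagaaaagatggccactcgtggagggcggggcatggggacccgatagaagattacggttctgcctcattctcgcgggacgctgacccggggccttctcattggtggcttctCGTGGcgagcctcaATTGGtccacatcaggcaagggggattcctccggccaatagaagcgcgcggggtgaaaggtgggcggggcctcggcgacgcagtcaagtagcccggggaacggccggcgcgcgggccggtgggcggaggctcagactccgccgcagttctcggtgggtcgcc
Alg12, an enzyme gene of N-glycan assembly in the ER, starts 328 bases away and reads in the other direction. It was chosen after its values were seen. Its level was 5.27, 7.61 and 6.90 FPKM in knockout and 4.91, 5.23 and 5.82 FPKM in wild type, a log2 fold change of 0.26 ± 0.133 that was not called (SE; by limma, adjusted p = 0.273). The knockout and wild-type values of Alg12 overlapped.

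Manf (chromosome 9, 106838312 to 106891979, minus strand) encodes a small secreted factor that binds BiP and is induced by ER stress. It was at 87.5, 103 and 84.4 FPKM in knockout replicates and 55.5, 73.5 and 92.4 FPKM in wild-type replicates. The groups overlapped, through wild-type replicate 3, and the log2 fold change of 0.33 ± 0.179 was not called (SE; 95% interval -0.08 to 0.75; limma, adjusted p = 0.287). Leaving out wild-type replicate 1 gave 0.15, and leaving out wild-type replicate 3 gave 0.51. Within a library, where scaling cancels, Creld2 was at 0.898, 0.830 and 0.790 times the FPKM of Manf in knockout and at 0.423, 0.495 and 0.494 times in wild type. Relative to Hspa5 it was at 0.102, 0.114 and 0.109 in knockout and at 0.0571, 0.0644 and 0.0806 in wild type. Neither ratio overlapped between the groups. The span of Manf, introns included, overlaps those of Rbm15b and Dcaf1 in the annotation. Whether exons overlap was not examined, and with strand not known to be kept, reads in any shared exon cannot be told apart. The same holds for Dnajb11 and Gm30505, which was at a mean of 4.60 FPKM in knockout and 6.94 FPKM in wild type, and for Hsp90b1 and 1810014B01Rik, at 1.11 FPKM in knockout and 0.687 FPKM in wild type.

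Of the general ER chaperones, Hspa5 (chromosome 2, 34771970 to 34777547, plus strand) encodes BiP, the ER Hsp70, which binds unfolded chains and holds the stress sensors inactive. It was the most abundant of the 10, at rank 98 of 10633 genes by mean FPKM. Its level was 767, 749 and 612 FPKM in knockout replicates and 411, 565 and 567 FPKM in wild-type replicates. The groups did not overlap, and wild-type replicate 1 stood lowest. The log2 fold change of 0.47 ± 0.158 missed the threshold (SE; 95% interval 0.10 to 0.84; limma, adjusted p = 0.116; exact permutation p = 0.1). Without wild-type replicate 1 it was 0.32.

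Hsp90b1 (chromosome 10, 86690209 to 86705509, minus strand) encodes GRP94, the ER Hsp90, which folds a narrower set of secreted and membrane proteins. It was at 365, 379 and 336 FPKM in knockout and 303, 354 and 321 FPKM in wild type, with overlapping groups (log2 fold change 0.14 ± 0.101 SE; 95% interval -0.09 to 0.38; limma, adjusted p = 0.414). The ratio of Hspa5 to Hsp90b1 within a library was 2.10, 1.98 and 1.82 in knockout and 1.36, 1.59 and 1.76 in wild type. Each knockout ratio was above each wild-type ratio, by little between knockout replicate 3 and wild-type replicate 3 (exact permutation p = 0.1). Both of the genes carry ERSE sites in the windows printed above.

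None of the 3 co-chaperones of BiP was called by limma. Dnajb9 (ERdj4; chromosome 12, 44205559 to 44210326, minus strand), a J protein that acts in ER-associated degradation and on IRE1, was at 82.9, 91.7 and 77.7 FPKM in knockout and 51.5, 73.7 and 69.9 FPKM in wild type. Its groups did not overlap, but the log2 fold change of 0.38 ± 0.144 was not called (SE; 95% interval 0.05 to 0.71; limma, adjusted p = 0.154). Without wild-type replicate 1 it was 0.22. Dnajb11 (ERdj3; chromosome 16, 22857845 to 22879634, plus strand), a J protein that brings BiP to nascent chains, was at 63.5, 57.9 and 61.0 FPKM in knockout and 60.7, 56.7 and 63.0 FPKM in wild type. Its values overlapped throughout, and the 95% interval of its log2 fold change ran from -0.18 to 0.21 (limma, adjusted p = 0.928). Its sign turned with scaling by median of ratios (-0.081) or by quantiles (-0.035), and without knockout replicate 1 (-0.015) or wild-type replicate 2 (-0.025). Sdf2l1 (chromosome 16, 17130138 to 17132383, minus strand), a partner of ERdj3, was at 82.6, 78.6 and 74.1 FPKM in knockout and 61.5, 70.0 and 76.0 FPKM in wild type, overlapping at knockout replicate 3 and wild-type replicate 3 (log2 fold change 0.18 ± 0.101 SE; by limma, adjusted p = 0.299). Within a library, Dnajb9 was at 1.307, 1.582 and 1.274 times the FPKM of Dnajb11 in knockout and at 0.8486, 1.300 and 1.109 times in wild type, and Sdf2l1 was at 1.302, 1.356 and 1.215 times in knockout and at 1.014, 1.235 and 1.205 times in wild type. Both of these ratios overlapped between the groups.

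The disulphide isomerases Pdia4 (ERp72; chromosome 6, 47796141 to 47813430, minus strand) and Pdia6 (P5; chromosome 12, 17266545 to 17284770, plus strand) form and rearrange disulphide bonds in the ER. Pdia4 was at 213, 215 and 172 FPKM in knockout replicates and 155, 156 and 153 FPKM in wild-type replicates. All knockout libraries were above the narrow wild-type range, and knockout replicate 3 was the nearest to it. The log2 fold change of 0.36 ± 0.108 missed the threshold (SE; 95% interval 0.11 to 0.61; limma, adjusted p = 0.0861), which ranged from 0.0514 to 0.249 with 1 library left out. Pdia6 was at 182, 155 and 188 FPKM in knockout and 185, 184 and 189 FPKM in wild type, with overlapping groups (log2 fold change -0.09 ± 0.0994 SE; 95% interval -0.32 to 0.14; limma, adjusted p = 0.608). The ratio of Pdia4 to Pdia6 within a library was 1.17, 1.39 and 0.912 in knockout and 0.836, 0.848 and 0.806 in wild type. There was no overlap, as for Pdia4 itself (exact permutation p = 0.1). Pdia6, whose window holds an ERSE, did not pass the test, and Pdia4, whose window holds none of the 3 elements, did not pass it either.

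Xbp1 (chromosome 11, 5520659 to 5525893, plus strand) encodes the transcription factor of the IRE1 branch. Its total transcript was at 112, 116 and 116 FPKM in knockout and 88.0, 90.3 and 136 FPKM in wild type. The knockout values lay close together and inside the wild-type range, in which wild-type replicate 3 was the highest of all 6. The log2 fold change was 0.16 ± 0.163 (SE; 95% interval -0.22 to 0.54; limma, adjusted p = 0.582), and it was not called with any 1 library left out. It was 0.36 without wild-type replicate 3 (adjusted p = 0.0651), 0.050 with wild-type replicate 1 left out (0.902) and 0.068 with wild-type replicate 2 left out (0.865).

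**Figure D2:**
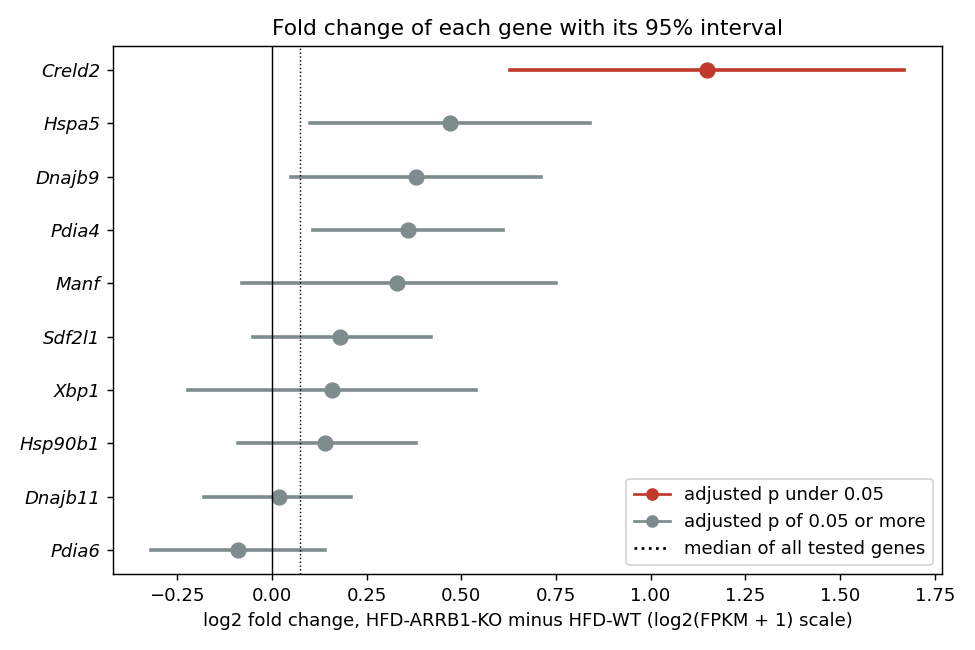
Log2 fold change, HFD-ARRB1-KO minus HFD-WT, of each of the 10 genes with its 95% interval, on the log2(FPKM + 1) scale. The interval lies above 0 for Creld2, Hspa5, Dnajb9 and Pdia4, and Creld2 (red) is the gene with an adjusted p under 0.05, while the dotted line marks the median of all tested genes, 0.0746.

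Set side by side, the 10 genes kept a similar but not identical order of level per length. In knockout the mean FPKM was 709 for Hspa5, 360.0 for Hsp90b1, 175 for Pdia6 and 115 for Xbp1. In wild type these genes stood at 514, 326, 186 and 105 FPKM. Pdia4 and Pdia6 were not separated beyond their spread in knockout, whereas every wild-type value of Pdia6 was above every wild-type value of Pdia4. Creld2 was the least abundant of the 10 in wild type, and in knockout its 3 values were above the 3 of Dnajb11. The 10 genes summed to 2035, 2030 and 1788 FPKM in knockout and to 1395, 1659 and 1713 FPKM in wild type, and Hspa5 made up 34.2% to 37.7% of the sum in knockout and 29.5% to 34.0% in wild type.

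Some libraries stood low for most of these genes. Knockout replicate 3 was the lowest of its group for 7 of the 10 genes, and wild-type replicate 1 was the lowest of its group for 7 of 10, the same library in which Arrb1 was lowest among wild types. How often these libraries were lowest over all tested genes was not examined, and a link to Arrb1 was not tested. With wild-type replicate 1 left out, the median log2 fold change of the 10 genes was 0.124 in place of 0.26. With wild-type replicate 3 left out it was 0.358. The spread between libraries in wild type was widest for Creld2 (31.7%), Xbp1 (25.8%) and Manf (25.02%) and narrowest for Pdia4 (1.04%) and Pdia6 (1.59%). Counting error did not exceed 3.06% of the value for any of the 10 genes in any library.

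**Figure D3:**
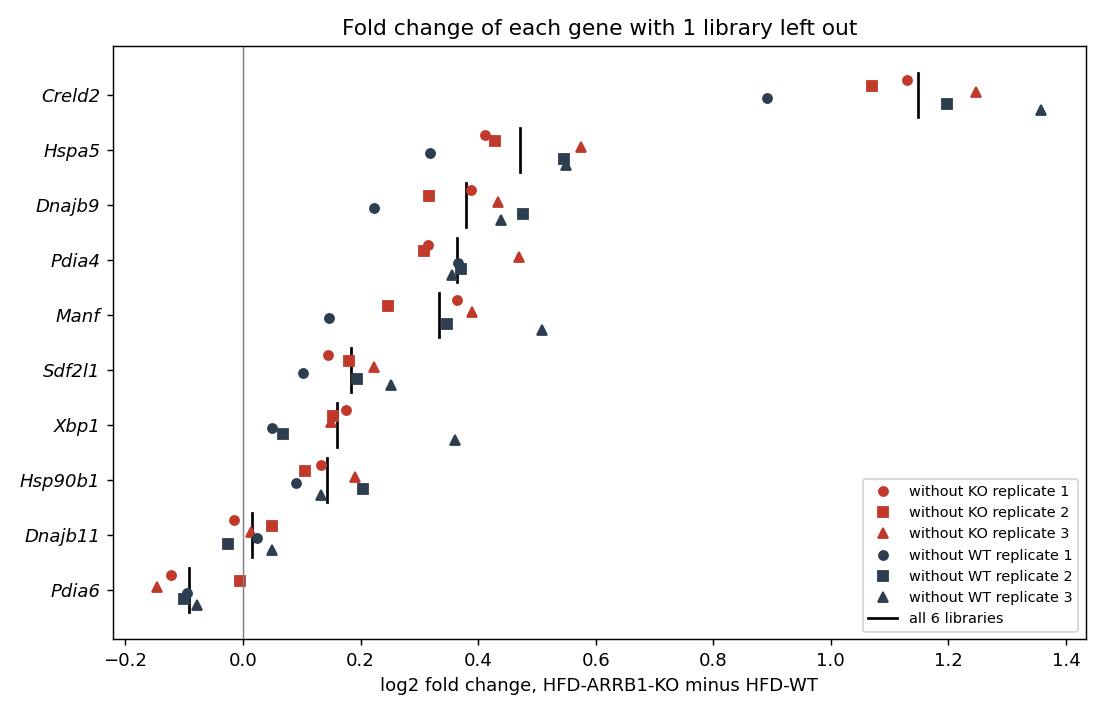
Log2 fold change, HFD-ARRB1-KO minus HFD-WT, of each of the 10 genes with all 6 libraries (black bars) and with each knockout (red) or wild-type (dark) library left out in turn. Creld2 stays between 0.89 and 1.36, and the values without wild-type replicate 1 (dark circles) lie to the left for Creld2, Hspa5, Dnajb9, Manf, Sdf2l1 and Xbp1.

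The other genes of the pathway were read from 5 lists of ER genes with 84 symbols, of which 80 were tested. Of these 80, 5 were called higher (6.25%, against 5.3% of all tested genes) and 1 lower, where 1.6% of all tested genes were. A log2 fold change above 0 was found for 50 (62.5%, against 63.6%). All knockout libraries were above all wild-type libraries for 17 of the 80 (21.25%, against 23.4% of all tested genes). The median log2 fold change was 0.027, against 0.0746 over all genes. The higher genes were Hyou1, Syvn1, Stt3b, Sec24d and Sec31a, and the lower was Ppib. With any 1 library left out, 0 to 3 were called higher and 0 or 1 lower. After median-of-ratios scaling 2 were higher and 3 lower.

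Among the 6 tested sensors and their processing proteases none was called in either direction by limma. At an unadjusted p under 0.05, 3 were higher, where 19.1% of all tested genes were. Eif2ak3, the PERK gene, was at 10.2, 12.2 and 11.2 FPKM in knockout and 6.07, 9.53 and 7.58 FPKM in wild type (limma, adjusted p = 0.088). Atf6 was at 18.4, 20.2 and 21.2 FPKM in knockout and 15.2, 17.3 and 16.0 FPKM in wild type (adjusted p = 0.102). Neither gene overlapped between the groups, nor did Mbtps1, the site-1 protease that cuts ATF6 (22.4 ± 1.87 FPKM in knockout and 18.2 ± 0.439 FPKM in wild type, SD, n = 3 each; limma, adjusted p = 0.0993). Over all tested genes, 23.4% had every knockout library above every wild-type library. Ern1, the IRE1 gene, was at 16.6, 13.2 and 11.8 FPKM in knockout and 14.8, 12.6 and 14.8 FPKM in wild type, fully overlapping (limma, adjusted p = 0.92). Its log2 fold change of -0.03 turned positive under TPM scaling (0.023) and without knockout replicate 3 or wild-type replicate 1 or 3.

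Of 20 other folding genes, 1 was called higher and 1 lower, where 5.3% of all tested genes were called higher and 1.6% lower. Hyou1 (GRP170), which exchanges nucleotides on BiP, was at 119, 126 and 118 FPKM in knockout and 68.8, 84.5 and 91.7 FPKM in wild type, with no overlap (log2 fold change 0.57 ± 0.117 SE; by limma, adjusted p = 0.032). Ppib, the ER cyclophilin B that acts on collagen and other secreted proteins, was at 170, 160 and 186 FPKM in knockout and 241, 233 and 244 FPKM in wild type, again with no overlap (-0.48 ± 0.0901 SE; by limma, adjusted p = 0.0251). The Hyou1 call was lost under median-of-ratios scaling (limma, adjusted p = 0.0527), with the replicate number as a block (0.0551) and with no filter (0.094). With 1 library left out it held in 1 case, without wild-type replicate 3 (0.0341), and its adjusted p reached 0.12. The Ppib call held in 1 case, without knockout replicate 3 (0.0417), and its adjusted p reached 0.0997. The Ppib call was also lost with the replicate number as a block (0.0625) and with no filter (0.0642).

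Of 15 genes of ER-associated degradation, which returns misfolded proteins to the proteasome, 1 was higher and none lower. The shares over all tested genes were 5.3% and 1.6%. Syvn1, the ubiquitin ligase HRD1 of this route, was at 80.2, 91.1 and 70.9 FPKM in knockout and 29.5, 49.5 and 44.2 FPKM in wild type, with no overlap. Its log2 fold change was 0.98 ± 0.19 (SE; by limma, adjusted p = 0.0266), and the call was lost without knockout replicate 1 (0.0564) or 2 (0.105) or wild-type replicate 3 (0.0515). Syvn1 was also not called with no filter (0.1051). Its partners Sel1l (58.9 ± 3.69 FPKM in knockout and 45.8 ± 3.36 FPKM in wild type, SD, n = 3 each; limma, adjusted p = 0.0607) and Derl1 (63.4 ± 1.93 FPKM in knockout and 50.1 ± 3.56 FPKM in wild type, SD, n = 3 each; limma, adjusted p = 0.0593) did not overlap between the groups and missed the threshold.

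Of the 25 translocation and glycosylation genes 1 was higher and none lower, against 5.3% and 1.6% of all tested genes. Their median log2 fold change was -0.006. Stt3b, a catalytic subunit of oligosaccharyltransferase, was at 41.5, 47.0 and 43.4 FPKM in knockout and 34.8, 33.7 and 32.7 FPKM in wild type (log2 fold change 0.37 ± 0.0827 SE; by limma, adjusted p = 0.0407). This call was lost with any 1 library left out (0.0529 to 0.139), and with scaling by median of ratios (0.0687) or by quantiles (0.0688). It was also lost with no filter (0.0718), without the trend in limma (0.0546) and with the replicate number as a block (0.0946). Rpn1 of the same complex was at 41.4, 40.3 and 43.2 FPKM in knockout and 54.6, 50.9 and 49.2 FPKM in wild type and was not called (limma, adjusted p = 0.0684). With scaling by median of ratios Rpn1 was called lower (limma, adjusted p = 0.0417). The list then had 0 higher and 2 lower, with 3 of the 25 above 0. With quantiles it had 0 higher and 1 lower, with 6 above 0.

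In the list of traffic between ER and Golgi, 2 of 14 genes were higher, where 5.3% of all tested genes were, and all 14 had a log2 fold change above 0, as 63.6% of all genes did. With scaling by median of ratios 1 of the 14 was higher and 8 were above 0, and with quantiles 1 was higher and 10 were above 0. With 1 library left out, 0 to 2 of the 14 were higher and 11 to 14 were above 0. Both called genes encode COPII coat proteins of the vesicles that leave the ER. Sec24d was at 43.3, 54.2 and 55.2 FPKM in knockout and 27.8, 29.2 and 34.8 FPKM in wild type (log2 fold change 0.71 ± 0.127 SE; by limma, adjusted p = 0.0215). Sec31a was at 51.2, 60.0 and 55.9 FPKM in knockout and 42.3, 43.4 and 41.3 FPKM in wild type (0.39 ± 0.0869 SE; by limma, adjusted p = 0.0425). Neither overlapped between the groups. The Sec24d call was lost without knockout replicate 2 (0.0906) or 3 (0.0628) or wild-type replicate 1 (0.0688) or 2 (0.088), and with no filter (0.0805). With 1 library left out the Sec31a call held in 1 case, without knockout replicate 1 (0.0437). It was lost with scaling by median of ratios (0.0683) or by quantiles (0.0552). The same was so with no filter (0.08155), without the trend in limma (0.0554) and with the replicate number as a block (0.0876).

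**Figure D4:**
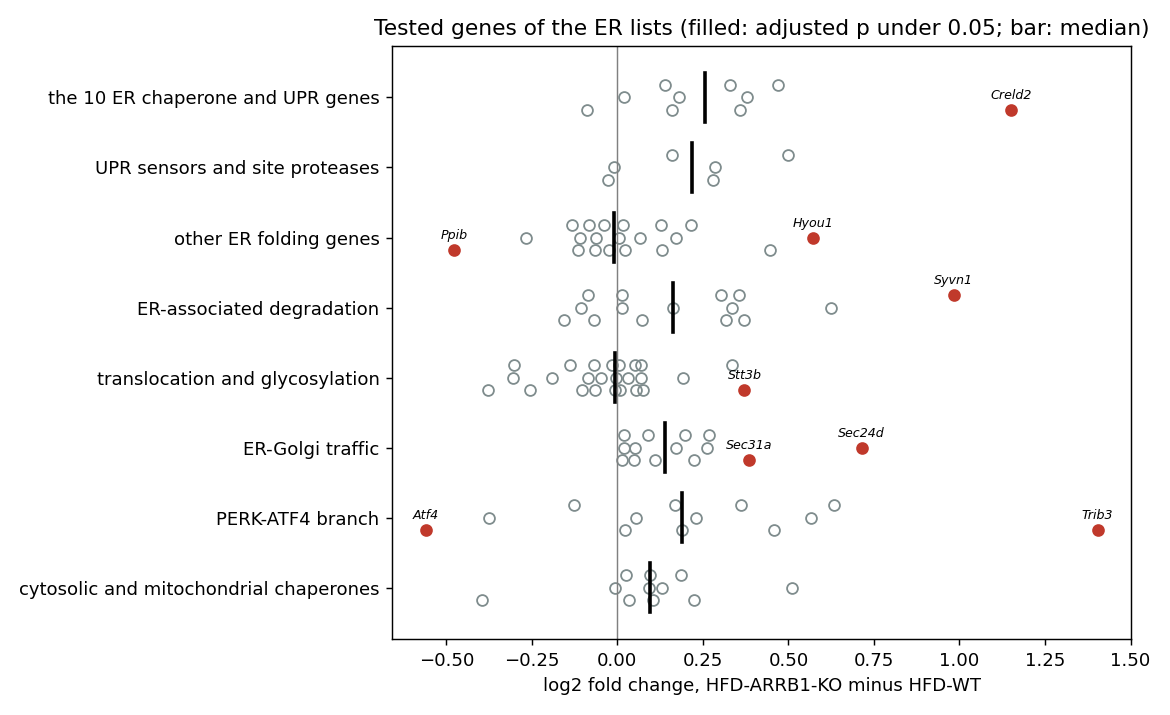
Log2 fold change, HFD-ARRB1-KO minus HFD-WT, of each tested gene in the list of 10 genes, the 5 other ER lists, the PERK-ATF4 branch and the cytosolic and mitochondrial chaperones. Filled red points have an adjusted p under 0.05 and carry their names, open points do not pass, and black bars are list medians, from -0.009 for other folding genes to 0.26 for the 10 genes.

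The PERK-ATF4 branch, read from 13 tested genes, had 1 higher and 1 lower, against 5.3% and 1.6% of all tested genes. Trib3, a pseudokinase gene induced through ATF4, was at 7.33, 7.69 and 8.19 FPKM in knockout and 1.17, 3.39 and 2.77 FPKM in wild type (log2 fold change 1.40 ± 0.238 SE; by limma, adjusted p = 0.0191). Atf4 itself was at 38.1, 36.2 and 34.0 FPKM in knockout and 45.9, 59.0 and 56.9 FPKM in wild type (-0.56 ± 0.113 SE; by limma, adjusted p = 0.0311). ATF4 is controlled mainly at translation, which transcript levels do not measure. Neither gene overlapped between the groups. The Trib3 call was lost without knockout replicate 2 (0.0741) or 3 (0.0525) and with no filter (0.0883). With 1 library left out the Atf4 call held in 1 case, without wild-type replicate 1 (0.0248), with an adjusted p of up to 0.106. The Atf4 call was also lost with no filter (0.0896) and with the replicate number as a block (0.0658). Ddit3 (CHOP), a transcription factor of prolonged ER stress, was at 5.97, 4.96 and 2.48 FPKM in knockout and 3.46, 4.10 and 4.69 FPKM in wild type, overlapping (log2 fold change 0.05 ± 0.245 SE; by limma, adjusted p = 0.918), and its sign turned under 2 scalings and without knockout replicate 1 or 2 or wild-type replicate 1.

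Chaperones outside the ER were read for comparison. Of 11 tested cytosolic and mitochondrial chaperones, limma called none, and 1, Hspb1, was higher at an unadjusted p under 0.05 (42.1 ± 6.52 FPKM in knockout and 29.2 ± 3.02 FPKM in wild type, SD, n = 3 each; limma, adjusted p = 0.06). At that unadjusted threshold 19.1% of all tested genes were higher. Hspb1 was called higher among genes of at least 5 FPKM (adjusted p = 0.04995) and on the TPM scale (0.040). The list's median log2 fold change was 0.097, against 0.26 for the 10 ER genes. It was -0.009 for the 20 other ER folding genes and 0.027 for the 80 other ER genes, both below this list. These differences were not tested. Of 13 immediate early genes, which respond within minutes to handling, limma called none in the fit on genotype alone. At an unadjusted p under 0.05, 1 (Socs3) was higher, where 19.1% of all tested genes were, and none was lower. The log2 fold change was above 0 for 5 of the 13, with a median of -0.596, against 0.0746 over all genes. That median rose to 0.145 once knockout replicate 1 was dropped, and to 0.106 once wild-type replicate 2 was dropped. It lay between -1.28 and -0.475 with any other library dropped. Egr1 ranged widely within both groups, at 2.67, 21.2 and 89.9 FPKM in knockout and 11.6, 180 and 203 FPKM in wild type.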

How the data were processed

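The labels' protocols give Trizol extraction of RNA and an Illumina TruSeq preparation from 1 ug. The authors deposited FPKM values, 1 per gene and library. The submitters' processing notes list Bowtie 0.12.2, HISAT2 and both mm8 and mm10. Which tool or build served which step, the annotation, the counter and strandedness are not given in the sources used here. Positions come from GENCODE vM21 (GRCm38), by symbol.

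Values were tested as log2(FPKM + 1) with limma 3.58.1 in R 4.3.3 (lmFit, eBayes with trend, two-sided). Genotype was the single term, and the 10633 genes averaging 1 FPKM or more entered. Benjamini-Hochberg adjustment ran over all of them, and 0.05 was the threshold for a call. Fold changes are knockout minus wild type on that scale, understate the change of low genes, and come from 3 libraries a group. P-values measure the spread between libraries, which may be technical. The fit was checked on simulated reads.

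FPKM steps gave whole reads for each gene described in reads. Fragments per library are estimates based on annotated lengths of 2517 single-transcript genes, 445 of them in the most common interval. Counting error covers sampling of reads only.

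The members and lists were chosen with earlier results of these data known. Other named genes are up to 4 per list with the smallest p, the sensors, Atf4 and Ddit3. Alternatives were other pseudocounts, filters, scalings, variance models and thresholds, a replicate block and each library left out. Protein sequences were not used here. Python 3.11.15, pandas 2.3.3 and matplotlib 3.10.9 were used for the other steps.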

Additional observations from a re-analysis of the deposited data

How the results depend on the processing

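Over the 10 genes and 15 alternatives, 141 of 150 fold changes kept their direction and their side of the threshold. The other 9 were the Creld2 call, lost in 5 alternatives, and the sign of Dnajb11, turned in 4. Creld2 was the 1 gene called higher, and that count was 0 with no filter, 2 at an adjusted p under 0.1 (Creld2 and Pdia4), and 0 to 1 with 1 library left out. Among the 80 other ER genes, the 5 higher and 1 lower became 0 and 0 with no filter, 2 and 3 with median-of-ratios scaling, 3 and 2 with quantile normalization and 12 and 3 at an adjusted p under 0.1. The higher count was 10 on the TPM scale and 3 without the trend. With 1 library left out the counts were 0 to 3 higher and 0 to 1 lower. Testing all genes with no filter raised the number tested to 22476 and also changed the standard errors (for Creld2 from 0.2223 to 0.2441). The cause of the shifts was not tested.

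With the replicate number as a block, the other ER genes had 2 higher and 0 lower, and Creld2 kept its call (adjusted p = 0.0436). Of the 13 immediate early genes 2 were then lower, in place of 0, and 1 of these was Egr1 (adjusted p = 0.030). Deviations from the group means correlated at 0.17, -0.0625 and 0.0966 for numbers 1, 2 and 3, and at -0.243 to 0.125 between unlike numbers. Such correlations over all tested genes cannot exclude a shared batch or handling order. Whether samples of the same number share more than the number was not tested.

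Signs turned for genes near 0. With median-of-ratios and quantile scaling Dnajb11 was at -0.081 and -0.035, and it lay between -0.025 and 0.050 with 1 library left out. Ddit3 was at -0.025 and -0.027 under these scalings and between -0.15 and 0.35. Ern1 was at 0.023 on the TPM scale and between -0.16 and 0.074. Higher genes made up 76.8% of all calls, 60.7% with median-of-ratios scaling and 64.5% with quantile normalization.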
